A study of Homo sapiens with 2 samples.

Results

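Integrins and the focal adhesion proteins that couple them to actin were examined for TCF7L1 binding in 37 genes. The set held 20 integrin genes (12 alpha and 8 beta subunits) and 17 genes for cytoplasmic focal adhesion proteins. It was chosen by gene name from 20046 protein-coding genes, with earlier results of these data known. TCF7L1, a DNA-binding regulator of Wnt target genes, was mapped by chromatin immunoprecipitation and sequencing (ChIP-seq) in HCT116, an established human colon adenocarcinoma cell line. In both groups the cells carried the lentiviral short hairpin RNA shTCF7L1-2, which lowers endogenous TCF7L1, and a pCW57.1 plasmid induced with doxycycline at 1 µg/ml. The plasmid expressed FLAG-tagged TCF7L1 in the TCF7L1 group. In the TCF7L1-MUT group it expressed the same protein with substitutions in the HMG box, the domain that contacts DNA. Each group was 1 sample, and an anti-FLAG antibody was used in both, so the regions describe an induced, tagged protein and not the endogenous one. There were no replicates: no p-value or SD is given, and 95% intervals cover counting error alone.

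Integrins are heterodimers of an alpha and a beta subunit that span the plasma membrane and bind the extracellular matrix or counter-receptors on other cells. The alpha subunit largely sets the ligand: collagens, laminins, or proteins such as fibronectin and vitronectin that carry an arginine-glycine-aspartate (RGD) motif. Talins and kindlins bind the beta tail and activate the receptor, the ILK, PINCH and parvin complex links it to actin, focal adhesion kinase and its scaffolds signal from the site, and vinculin, zyxin, tensins and alpha-actinins hold the actin filaments. In the intestinal epithelium these contacts anchor cells to the basement membrane.

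A summit is the position within a called region where the reads stack highest. A gene was counted as having a promoter summit when a summit lay within 2.5 kb of any of its annotated transcription start sites (TSSs), and as having a summit in reach when one lay inside the gene or within 100 kb of a TSS. The lists held 3663 regions (3762 summits) for TCF7L1 and 204 (224 summits) for TCF7L1-MUT. The lists carry no read totals, and they were not scaled to each other.

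TCF7L1 promoter summits were found at ITGB8 and LIMS1, 2 of the 37 genes (5.41%, Wilson 95% interval 1.50 to 17.7%). ITGB8 encodes the beta subunit that pairs with integrin alpha V and takes part in activating latent TGF-beta, and LIMS1 encodes PINCH-1, the adaptor that binds integrin-linked kinase. Of all protein-coding genes, 4.86% had a promoter summit, a share that would give 1.80 of 37 genes. Summits in reach were found at 11 of the 37 genes (29.7%, 17.5 to 45.8%), against 23.1% of all protein-coding genes, which would give 8.55 genes. Both shares had the all-gene share inside their interval, so neither set the adhesion genes apart at this number of genes. The 11 genes held 12 distinct regions, and no region was counted for more than 1 of the 37 genes.

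With TCF7L1-MUT, 0 of the 37 genes had a promoter summit and 0 had a summit in reach. By the limit of 3 counts that a count of 0 allows, this leaves a share of up to 8.11%, and the Wilson upper bound is 9.41%. The all-gene shares for TCF7L1-MUT were 0.0948% for promoters and 0.803% in reach, which would give 0.0351 and 0.297 of 37 genes, so a count of 0 was near what those shares give. None of the 12 TCF7L1 regions at the adhesion genes overlapped a TCF7L1-MUT region, compared with 132 of all 3663 TCF7L1 regions that did. The nearest TCF7L1-MUT summit to any of these genes lay 1354 kb away, at ACTN4, and 6 of the 37 genes had no TCF7L1-MUT summit on their chromosome.

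**Figure D1:**
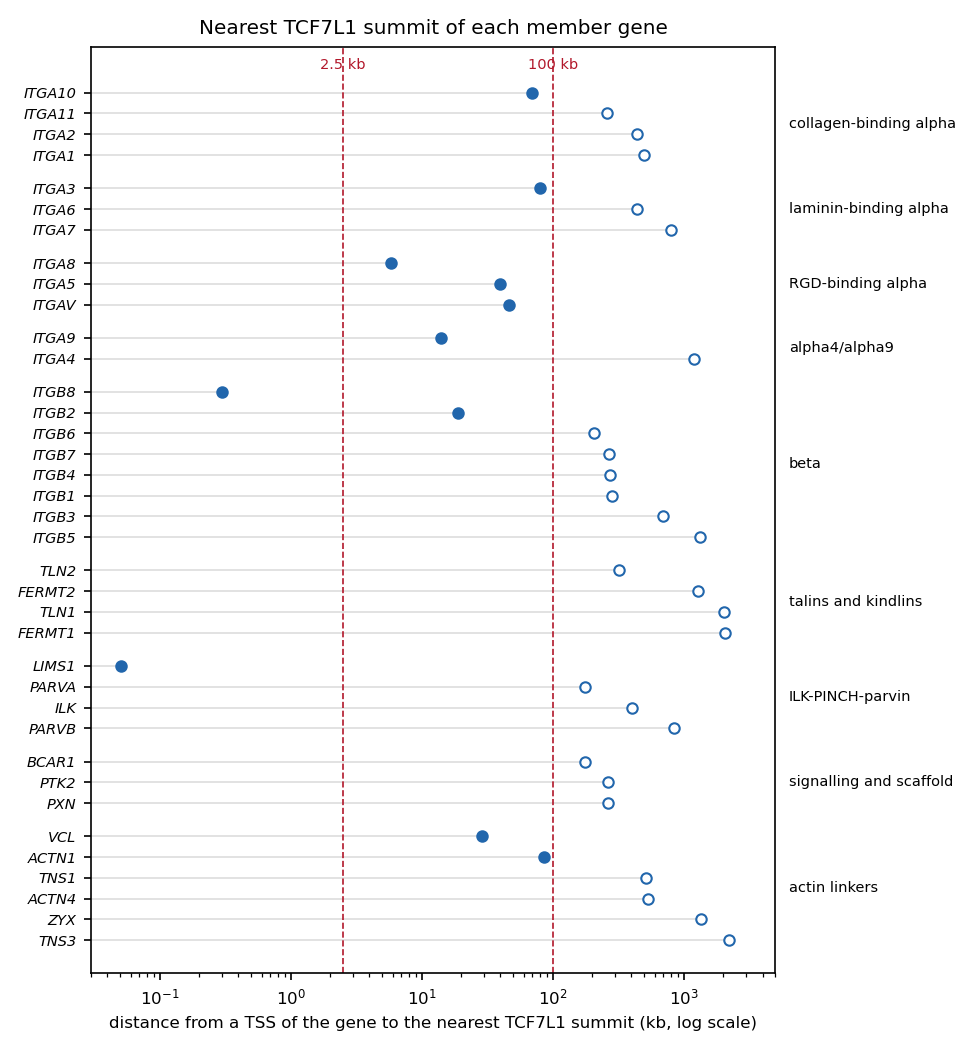
Distance in kb (x axis, log scale) from the nearest TSS of each of the 37 genes (rows, grouped by role) to the nearest TCF7L1 summit in the 1 TCF7L1 sample, with filled points for genes with a summit in reach, open points for the others and dashed lines at 2.5 and 100 kb. Points run from 0.051 kb at LIMS1 to 2201 kb at TNS3, and 11 of the 37 are filled.

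The sequences under the summits are shown for the promoter regions, because the promoter count turns on them, and for ITGA5, as a region away from the promoters of the 37 genes whose window holds a word match. All are the plus strand of GRCh38/hg38, 5′ to 3′, the summit with 100 bases to either side. The ITGB8 window is chr7:20330303-20330503, and LIMS1 has 2 promoter regions, called LIMS1 A (chr2:108609331-108609531) and LIMS1 B. Of LIMS1 B the 42 bases that precede an annotated UTR are shown (chr2:108621224-108621265), since 89 bases of its window lie in a UTR. The ITGA5 window is chr12:54359271-54359471. Capitals mark matches on either strand to the TCF core (CTTTGAA or CTTTGAT or CTTTGTA or CTTTGTT) at ITGB8, to the AP-1 word (TGACTCA or TGAGTCA) at LIMS1 B and to the SP/KLF word (GGGCGG) at ITGA5.
ITGB8: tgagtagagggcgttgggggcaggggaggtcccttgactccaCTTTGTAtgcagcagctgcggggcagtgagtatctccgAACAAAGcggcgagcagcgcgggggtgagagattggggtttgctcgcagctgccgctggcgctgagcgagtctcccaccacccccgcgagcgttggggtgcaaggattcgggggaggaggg
LIMS1 A: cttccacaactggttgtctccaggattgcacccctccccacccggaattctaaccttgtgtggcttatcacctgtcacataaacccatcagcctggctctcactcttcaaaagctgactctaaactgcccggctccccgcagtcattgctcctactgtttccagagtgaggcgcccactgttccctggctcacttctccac
LIMS1 B: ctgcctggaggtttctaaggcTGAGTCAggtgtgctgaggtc
ITGA5: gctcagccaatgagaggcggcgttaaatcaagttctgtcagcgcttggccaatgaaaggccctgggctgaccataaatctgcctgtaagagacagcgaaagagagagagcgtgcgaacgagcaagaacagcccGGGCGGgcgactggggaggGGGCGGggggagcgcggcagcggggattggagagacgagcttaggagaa

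The ITGB8 region (chr7:20330127-20330618) had the highest fold enrichment of the 12, 6.19, at a −log10 q (the significance the peak caller gave, adjusted over the genome) of 7.33. Fold enrichment is the reads stacked at the summit divided by the local background, with 1 added to both; here 19 reads stood over a background of 2.23. The summit lay 299 bp upstream of the nearest ITGB8 TSS, in an intron of the antisense gene ITGB8-AS1, and no other protein-coding TSS was nearer. The region ranked 747 of 3663 by fold enrichment. Its window held 15 CpG dinucleotides at 65.7% GC, the highest GC content of the 12, and 2 TCF core matches, CTTTGTA at positions -58 to -52 from the summit on the plus strand and CTTTGTT at -20 to -14 on the minus strand. These are the capitals of the ITGB8 line above.

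LIMS1 was the only one of the 11 genes with more than 1 summit in reach (9.09%, 1.62 to 37.7%). Of all protein-coding genes with a summit in reach, 27.1% had several, a share inside that interval. LIMS1 A (chr2:108609242-108609655) had 24 reads over a background of 4.62, for a fold enrichment of 4.45 at a −log10 q of 5.69. It lay in an intron, 2270 bp downstream of an internal TSS and 75.8 kb from the 5′ end of the gene. LIMS1 B (chr2:108621158-108621469) had 28 reads over 7.22, the highest background of the 12, for a fold enrichment of 3.53 at a −log10 q of 4.43. It lay 51 bp downstream of another internal TSS, 87.7 kb from the 5′ end of the gene. LIMS1 therefore counted as a promoter gene through alternative TSSs, and had no summit within 2.5 kb of the 5′ end of the gene. LIMS1 B ranked 3458 of 3663 by fold enrichment, and its window held the AP-1 word at -79 to -73, with no TCF core match.

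**Figure D2:**
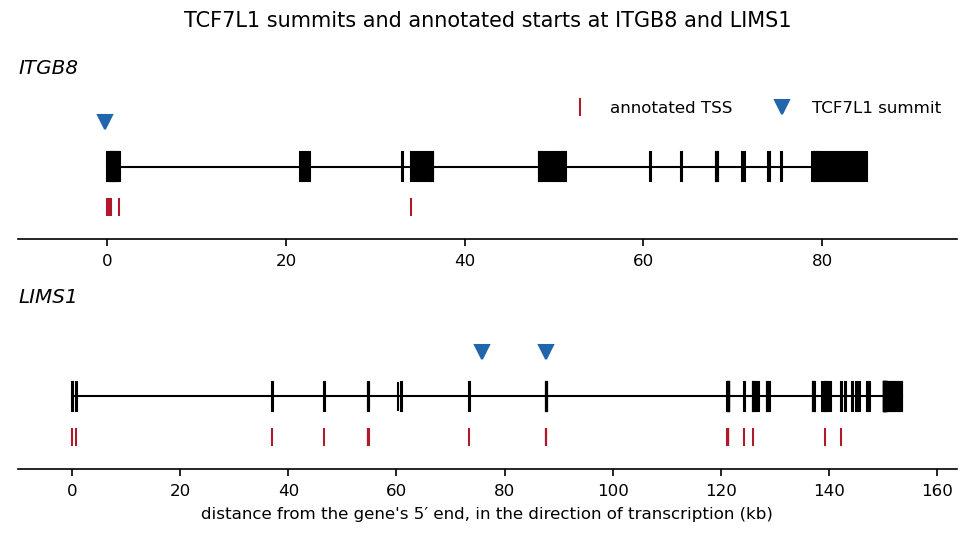
ITGB8 and LIMS1 drawn to scale from their 5′ ends (x axis, kb in the direction of transcription), with exons as black boxes, annotated TSSs as red ticks and TCF7L1 summits as blue triangles. The ITGB8 summit sits 299 bp before the 5′ end of the gene, and the LIMS1 summits sit at 75.8 and 87.7 kb, inside the gene.

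Among the alpha subunits, 6 of 12 genes had a summit in reach and none had one at a promoter, with 23.1% of all protein-coding genes in reach. By ligand these were 1 of 4 collagen-binding, 1 of 3 laminin-binding, 3 of 3 RGD-binding (ITGA5, ITGA8 and ITGAV) and 1 of the 2 alpha 4 and alpha 9 genes. With 2 to 4 genes in each, these counts do not set one ligand group apart from another. ITGA8, the alpha subunit of a nephronectin receptor, had the nearest summit, 5794 bp upstream of its TSS (chr10:15725508-15725873), with a fold enrichment of 5.01 (25 reads over 4.18) at a −log10 q of 7.197. Its region lay between genes, with the ITGA8 TSS as the nearest protein-coding one. The ITGAV region lay 46.5 kb upstream of the gene for integrin alpha V, with a fold enrichment of 5.85 (19 reads over 2.42) at a −log10 q of 6.77. It was the second strongest of the 12 by fold enrichment, but the nearest protein-coding TSS was that of ZC3H15, at 36801 bp. Of the short words of bases in the ITGAV window, 45.6% occur more than once in the assembly, the largest share of the 12 windows.

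The ITGA5 region (chr12:54359223-54359532) lay 39.5 kb downstream of the nearest TSS of the gene for the fibronectin receptor alpha subunit. That TSS is internal to the gene, and the region lay beyond the 3′ end of ITGA5, though within 100 kb of its 5′ end. Its fold enrichment was 5.08 (23 reads over 3.72) and its −log10 q was 6.71. The nearest protein-coding TSS was that of GPR84, at 5115 bp, and the TSS of a long non-coding RNA, ENSG00000289854, lay 159 bp away. Its window held 2 GGGCGG words, at 33 to 38 and 52 to 57, and 15 CpG dinucleotides.

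Of the laminin-binding alpha genes, ITGA3 had a summit in reach, and ITGA6 and ITGA7 had none. The ITGA3 region (chr17:49976067-49976700) lay 79.5 kb upstream, with 39 reads over a background of 6.98, a fold enrichment of 5.02 at a −log10 q of 11.7, and the TSS of DLX4, a homeobox gene, was nearer, at 3481 bp. Of the 4 collagen-binding alpha genes, ITGA10 alone had a summit in reach (chr1:145979163-145979844), 69.5 kb upstream, with a fold enrichment of 4.41 (28 reads over 5.58; −log10 q 6.69). There the nearest protein-coding TSS was that of TXNIP, which encodes a thioredoxin-binding protein, at 14622 bp.

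ITGA9, whose product pairs with integrin beta 1 and binds tenascin-C among other ligands, had a region inside the gene (chr3:37765820-37766137). This region lay in an intron, 14.1 kb upstream of the nearest ITGA9 TSS, an internal one far from the 5′ end of the gene. It was the weakest of the 12, with 18 reads over 4.74, a fold enrichment of 3.31 at a −log10 q of 2.03, and it ranked 3549 of 3663. Its window held a TCF core match, CTTTGTT, at -4 to 2, the nearest to a summit among the 12. ITGA4 had no summit in reach, its nearest being 1200 kb away.

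Of the 8 beta subunit genes, ITGB2 had a summit in reach beside ITGB8. ITGB2 encodes the beta subunit of the leukocyte integrins, and its summit (chr21:44870065-44870430) lay 18.9 kb downstream of the nearest ITGB2 TSS, in an intron of PTTG1IP whose TSS was 2784 bp away. That ITGB2 TSS is internal to the gene, and the summit lay beyond the 3′ end of ITGB2, though within 100 kb of its 5′ end. The fold enrichment was 4.19 (22 reads over 4.50), the −log10 q was 4.60, and 39.8% of the 31-base words in the window occur more than once in the assembly. That window held 2 TCF core matches, CTTTGAT at -60 to -54 and CTTTGAA at -27 to -21, and the FOX word TGTTTAC at -85 to -79. ITGB1, the common partner of most alpha subunits, had its nearest summit 285 kb away, and ITGB4, the hemidesmosome subunit that pairs with integrin alpha 6, had its nearest at 273 kb.

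Among the cytoplasmic genes, 3 of 17 had a summit in reach (17.6%, 6.19 to 41.0%), against 8 of 20 integrin genes (40.0%, 21.9 to 61.3%). The intervals overlap, and the difference was not tested. Besides LIMS1, these were VCL and ACTN1. The VCL region lay 28.9 kb upstream of the gene for vinculin, between genes, with the VCL TSS as the nearest protein-coding one. Its fold enrichment was 5.16, from 28 reads over 4.62, and its −log10 q was 8.49.

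ACTN1, which encodes an alpha-actinin that cross-links actin filaments, had the region with the most reads of the 12, 40 over a background of 7.16, and the highest −log10 q, 12.1. The fold enrichment was 5.02. This region (chr14:68793203-68793602) lay 85.7 kb downstream of the nearest ACTN1 TSS and 342 bp upstream of the nearest TSS of ZFP36L1, an mRNA decay factor gene, in an annotated UTR of ZFP36L1. The region lay beyond the 3′ end of ACTN1 and, as that ACTN1 TSS is internal to the gene, was in reach only through an alternative TSS. It had 17 CpG dinucleotides, the most of the 12 windows.

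The receptor activators TLN1, TLN2, FERMT1 and FERMT2 had no summit in reach, nor did PTK2 (focal adhesion kinase), PXN (paxillin) or BCAR1 (p130Cas). ILK, PARVA, PARVB, ZYX, TNS1, TNS3 and ACTN4 had none either, nor did the integrin genes ITGA1, ITGA2, ITGA11, ITGB3, ITGB5, ITGB6 and ITGB7. At the 2.5 kb limit, the LIMS1 A summit at 2270 bp was just inside and the ITGA8 summit at 5794 bp was the next outside. At the 100 kb limit, ITGA3 at 79.5 kb and ACTN1 at 85.7 kb were just inside, and PARVA at 176 kb and BCAR1 at 178 kb were the next outside. The farthest was TNS3, with no summit within 2201 kb of its TSSs.

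Over the 37 genes, the median distance to the nearest TCF7L1 summit was 273 kb (binomial 95% interval 178 to 496 kb), against 343 kb (335 to 352 kb) for all protein-coding genes. Within 10 kb of a TSS there was a summit at 3 of 37 genes (8.11%) and at 6.97% of all genes. Within 50 kb the counts were 8 of 37 (21.6%, 11.4 to 37.2%) and 14.9%, and within 500 kb they were 25 of 37 (67.6%, 51.5 to 80.4%) and 61.6%. The all-gene share lay inside the interval of the adhesion genes at each of the 10 distances examined.

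**Figure D3:**
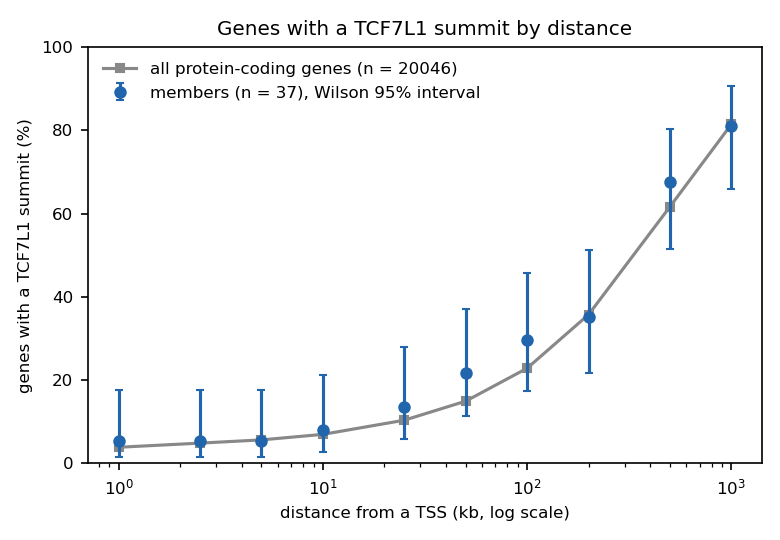
Share of genes, in percent, with a TCF7L1 summit within a given distance of a TSS (x axis, kb, log scale), as points with Wilson 95% intervals for the 37 adhesion genes (members) and as a grey line for all 20046 protein-coding genes. The points rise from 5.41% at 1 kb to 81.1% at 1000 kb, and the line stays inside their intervals.

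The adhesion genes were long and had many annotated TSSs. Their median span was 90.9 kb with 11 TSSs, against 27.4 kb and 5 TSSs for all protein-coding genes, and 23 of the 37 fell in the top quartile of gene length (71.7 kb or more). In that quartile, 7 of 23 adhesion genes had a summit in reach (30.4%, 15.6 to 50.9%), against 34.3% of all genes of that length. In the next quartiles down the counts were 2 of 9 (22.2%, against 21.9% of all genes), 2 of 4 (against 18.7%) and 0 of 1 (against 17.5%). By number of TSSs, a summit was in reach of 5 of 8 adhesion genes with 3 to 5 TSSs (62.5%, 30.6 to 86.3%, against 22.0% of all genes), 0 of 9 with 6 to 10 (Wilson upper bound 29.9%, against 24.2%) and 6 of 20 with 11 or more (30%, 14.5 to 51.9%, against 27.5%). The share among adhesion genes thus did not rise steadily with the number of TSSs, and in the class of 3 to 5 TSSs its interval lay above the all-gene share. That class held 8 genes, was among several small classes read, and its difference was not tested. Per length of sequence searched, the adhesion genes had 1.09 summits per Mb (exact Poisson 95% interval 0.565 to 1.91, from 12 regions in 10.97 Mb), against 1.45 (1.40 to 1.51) for all protein-coding genes. So the share above the all-gene value in reach was not accompanied by a higher density, and the interval of the adhesion genes held the all-gene density.

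The regions at adhesion genes had a median fold enrichment of 5.02 (4.19 to 5.16), the same to 2 decimals as all 3663 regions (5.02, 4.97 to 5.07), and 5 of the 12 lay above the median of all regions. The median reads at the summit were 24.5 (19 to 28) against 20 for all regions, and the median background was 4.62 (3.72 to 6.98) against 3.26 (3.19 to 3.35). The background intervals did not overlap. Background was among several measures read, regions of the same library are not replicates, and the difference was not tested. The median −log10 q was 6.74 (4.60 to 8.49) against 5.50 (5.36 to 5.65). Median region width was 407 bp against 409 bp, and median GC content was 52.7% against 51.7%. All 12 windows were mostly single-copy sequence, as were 2828 of the 3582 TCF7L1 windows that could be read.

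**Figure D4:**
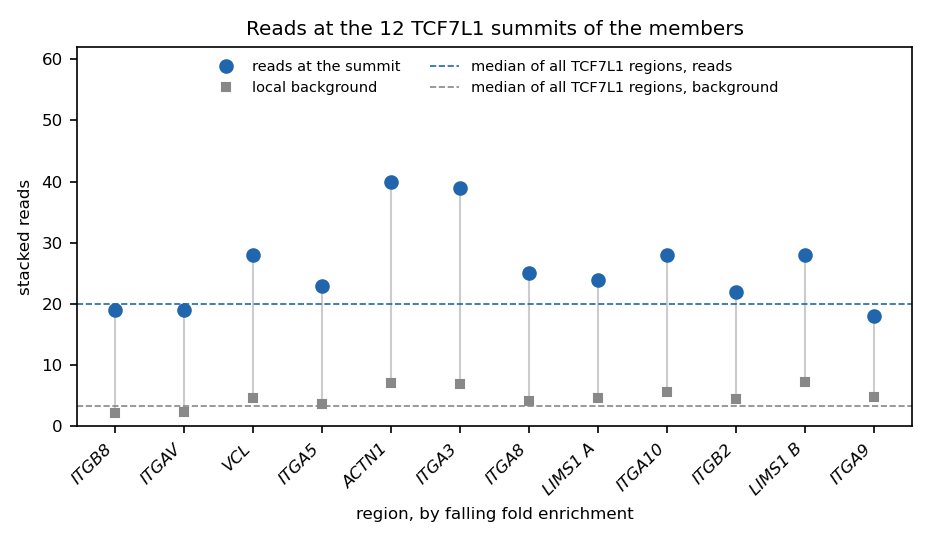
Stacked reads (y axis) at the summit (blue circles) and in the local background (grey squares) for the 12 TCF7L1 regions at the 37 genes, ordered by falling fold enrichment from left to right, with dashed lines at the medians of all TCF7L1 regions. Reads range from 18 at ITGA9 to 40 at ACTN1, and ITGB8, the highest by fold enrichment, combines 19 reads with the lowest background, 2.23.

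For 6 of the 12 regions (50%, 25.4 to 74.6%) the nearest protein-coding TSS belonged to the adhesion gene itself: ITGB8, both LIMS1 regions, ITGA8, ITGA9 and VCL. The same held for 2925 of 6809 pairs of a summit and a gene in reach over all protein-coding genes (43.0%, 41.8 to 44.1%). The other 6, at ITGA3, ITGA5, ITGA10, ITGAV, ITGB2 and ACTN1, lay nearer to a TSS of another gene. Upstream of the nearest TSS of the adhesion gene lay 7 of the 12 summits.

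TCF core matches were found in 3 of the 12 windows, at ITGB8, ITGB2 and ITGA9 (25%, 8.89 to 53.2%), against 26.8% (25.3 to 28.2%) of the 3582 TCF7L1 windows that could be read from assembled sequences. In windows 1 kb to either side the shares were 12.5% (3 of 24) and 16.4%. Of the 140 TCF7L1-MUT windows read, 12.9% held a match, against 13.1% (35 of 267) of the windows 1 kb to either side of them. Of the other words searched, the AP-1 word was in 1 of 12 windows (all regions 7.37%), the FOX word (TATTTAC or TGTTTAC) in 1 of 12 (12.7%) and GGGCGG in 2 of 12 (14.1%). No match to any of the 4 words was found in 6 of the 12 windows, those at ITGA8, ITGA10, ACTN1 and LIMS1 A among them. A match describes letters in a window and not a bound site.

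**Figure D5:**
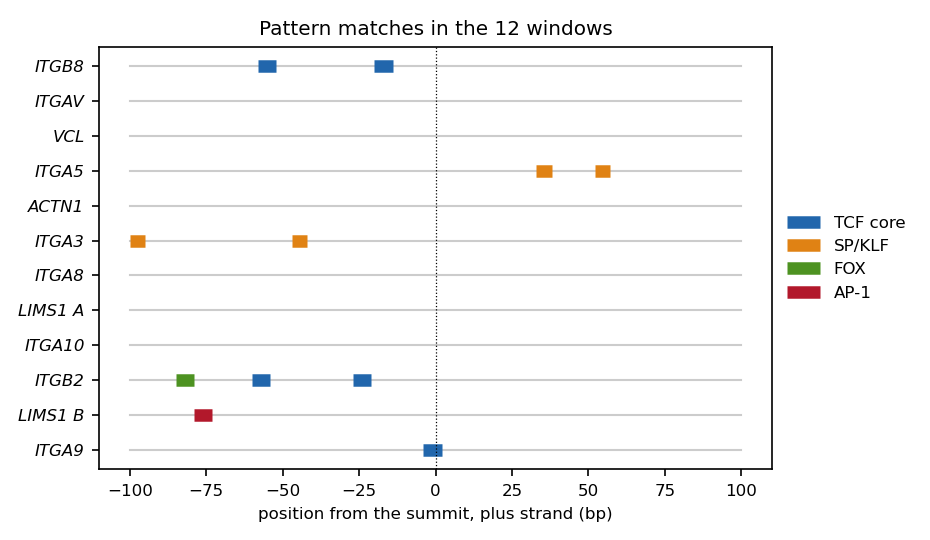
Positions of word matches (x axis, bases from the summit on the plus strand) in the 12 windows (rows, by falling fold enrichment), coloured by word. ITGB8 and ITGB2 each hold 2 TCF core matches before the summit, ITGA9 holds 1 across the summit, and 6 rows are empty.

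The promoters themselves were also read, as 300-base windows around the RefSeq start (GRCh38.p14), which were found for 28 of the 37 genes. The TCF core was in 0 of 28 (Wilson upper bound 12.1%) and in 10.97% of 15344 protein-coding promoters. GGGCGG was in 18 of 28 (64.3%, 45.8 to 79.3%), including ITGB8, LIMS1 and VCL, against 59.2%. The AP-1 word was in 2 of 28, BCAR1 and ITGA5, against 3.68%, and the FOX word in 0 of 28, against 4.52%. At ITGB8 the TCF core matches lay under the ChIP-seq summit and not in the RefSeq promoter window.

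A wider list of 64 adhesion genes, 6 leukocyte and platelet integrins and 58 further focal adhesion genes, was read in the same way. There, 9 genes had a TCF7L1 promoter summit (14.1%, 7.58 to 24.6%): FYN, NEDD9, GIT1, ENAH, SORBS3, PDLIM1, PALLD, CDC42 and ROCK2. Its interval, which covers counting error only and whose genes are not replicates, lay above the all-gene share of 4.86%. The list was chosen with earlier results of these data known, so this is not independent evidence of an excess. FYN is a Src family kinase, NEDD9 a scaffold related to BCAR1, and ENAH and PALLD bind actin or its regulators. CDC42 is a small GTPase and ROCK2 a kinase, both acting on the actin cytoskeleton. The 10 promoter regions had fold enrichments of 3.18 to 5.40, with a median of 4.20. These genes also had a median of 11 TSSs, and among genes with 11 or more TSSs the promoter shares were 6 of 33 in this list (18.2%, 8.61 to 34.4%), 1 of 20 in the 37 genes (5.00%) and 7.69% of all protein-coding genes. The lists were chosen by name and their difference was not tested.

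In reach, 24 of the 64 had a TCF7L1 summit (37.5%, 26.7 to 49.7%), against 23.1% of all genes and 29.7% of the 37. Among the 6 leukocyte and platelet integrins there was no promoter summit, and ITGA2B and ITGAL had a summit in reach. TCF7L1-MUT summits were in reach of 2 of the 64 (3.1%, 0.861 to 10.7%), against 0.803% of all protein-coding genes. That share rests on 2 genes, its interval covers counting error only, and the difference was not tested. The genes were TRIP6 at 87.9 kb (fold enrichment 4.29) and SHARPIN at 17.7 kb (6.59), and both also had a TCF7L1 summit at about the same position.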

How the data were processed

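ChIP-seq regions of 1 TCF7L1 and 1 TCF7L1-MUT sample were grouped by the genotype in their labels. The submitters' processing notes name FastQC, BWA (v0.7.12) and MACS2 (v2.1.0) with GRCh38/hg38, and the methods name skewer for trimming. Peaks were called per sample. The input library, q threshold and handling of duplicate reads are not given in the sources used here, and each could change the lists, mainly for weak regions. The deposited lists give, as the authors' caller wrote them, a fold enrichment (a ratio with a pseudocount of 1) and the −log10 of the p-value and q-value. The deposited summit lists repeat positions and q-values and were not used.

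Whole reads and local background were solved from fold enrichment and p under a Poisson model, within 0.001 of −log10 p for 3663 of 3663 TCF7L1 regions. These are library-scale values, not adjusted for depth. Gene counts, distances and densities used every summit. For fold enrichment, reads, ranks and word shares over all regions, each region was represented by its summit of highest −log10 q. TSSs came from all transcripts of GENCODE release 44. Word searches covered both strands of windows reaching 100 bases to either side of the summit, for 3582 TCF7L1 and 140 TCF7L1-MUT regions; regions on unplaced scaffolds and patches were left out. Copies of 31-base words were counted over 194 sequences, and a window was mostly single-copy when under 50% of its words occurred more than once. Intervals are Wilson for shares, binomial for medians and exact Poisson for densities. Genes and regions of 1 library are not replicates, so no test was run.

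The members and lists were chosen with earlier results of these data known. By the naming rule, genes with a promoter summit were described in full, the others in reach by their strongest summit, and genes without a summit by name. From the wider list the promoter genes, the genes with a TCF7L1-MUT summit and the leukocyte or platelet genes in reach were named after their values were seen. Some sequences and genes that the rules would give are not reported here. Scripts ran in Python 3.11.15 with numpy 2.4.6, scipy 1.17.1, pandas 2.3.3 and pysam 0.24.0, and were tested on simulated data. Alternatives were stricter q and fold limits, other distances, TSS sets, windows and region sets.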

Additional observations from a re-analysis of the deposited data

How the results depend on the processing

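Of 46 alternatives over 6 results, 45 gave a value inside the 95% interval of the reported one, though many could not have moved it. The exception was the share of the 37 genes with a TCF7L1 summit in reach, which was 5.41% when a summit had to lie inside the gene (all genes 7.23%) against 29.7% as reported; that setting searches less sequence. Among the others, the promoter share ran from 2.70 to 5.41%, the share in reach from 18.9 to 29.7%, the median fold enrichment from 4.73 to 5.02 and the TCF core share from 14.3 to 33.3%. The promoter share of 2.70% came from a fold enrichment of at least 5, which drops LIMS1, and from using the 5′ end of each gene. In the widest window run, 48.2% of all TCF7L1 regions held a TCF core match against 25% of the 12, and in the narrowest 15.3% against 25%. The TCF7L1-MUT count stayed at 0 of 37 under every alternative run, but none of them could have changed it. The nearest TCF7L1-MUT summit lay 1354 kb from a TSS of these genes, farther than any alternative searched. The TCF7L1-MUT alternatives are among the 45 and therefore say nothing about how stable the results are. The same holds for keeping mostly single-copy sequence, leaving out regions that overlap a TCF7L1-MUT region, and using every summit. At the 37 genes, 12 of 12 regions were mostly single-copy, 0 of 12 overlapped a TCF7L1-MUT region, and the 12 regions held 12 summits. No paired analysis was possible because there was 1 sample in either group. The 37 genes and 12 regions leave wide intervals, and the depth behind the weakest regions was not analysed here.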
